A study of Mus musculus with 6 samples.

Results

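The transcripts that a mouse egg holds in the largest amounts at metaphase II, the stage at which it is ovulated and waits for sperm, were ranked in 6 RNA-seq libraries. In each library, genes were ordered by CPM, the gene's read count per 1000000 counts of that library, with rank 1 for the highest. Genes that ranked 200 or better in all 6 libraries were taken as the shared abundant transcripts. They numbered 107 of the 24062 genes in the table (0.445%). They held 30.3 to 39.1% of the counts of a library.

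The females were 8 weeks old, carried the multicolour histone transgene HISRainbow and the recombinase Figla-iCre, and were superovulated. Every egg therefore came from a female with both the transgene and the recombinase, and no library of eggs without them was used here. Eggs were assigned to groups by colour under a confocal microscope. The H3.3 group expressed H3.3-eGFP, the replacement histone H3.3 without a substitution. The K27R group expressed H3.3K27R-mCherry, in which lysine 27 is replaced by arginine, and the R26K group expressed H3.3R26K-eCFP, in which arginine 26 is replaced by lysine. Each group had 2 libraries, called biological replicates in the labels. Substitution, fluorescent tag and library set cannot be told apart. How many eggs and females went into each library is not given in the sources used here, so the spread between replicates may be partly technical.

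A growing oocyte makes and stores messenger RNA, and transcription stops before ovulation. The metaphase II egg works from that store: some messengers gain poly(A) tails in the cytoplasm and are translated during meiotic maturation, while others lose their tails and are destroyed. A rank therefore describes stored RNA. Since the cDNA was primed on poly(A), it also depends on tail length, whose part in the ranks was not tested.

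Total counts were 33786225 and 39603440 in the R26K libraries and 10803477 to 12748821 in the other 4. The number of genes with at least 1 count was 7392 to 7590 in 3 of the 4 shallower libraries, 10715 in K27R replicate 1, and 12112 and 12135 in both R26K replicates. Between 128 and 148 genes reached 1000 CPM in a library. The R26K libraries stood apart in depth and in rank order. When every library was thinned to the total of the smallest, the number of shared abundant transcripts was again 107. With only the H3.3 and K27R libraries it was 147, and these held 42.7% of counts on average, against 35.2% for the 107 over all 6.

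Each library had a count for 15 or 16 of the 16 oocyte markers, at widely different levels. The lowest were Ddx4, at 0 to 22.4 CPM, and Figla, at 0 to 4.93 CPM. Of 16 oocyte markers, 6 were among the 107, and the marker sum was 53598 to 70121 CPM. Of 35 markers of cumulus and granulosa cells, the somatic cells around the egg, 8 were at 0 in all 6 libraries (Lhcgr, Areg, Ereg, Pgr, Cd44, Grem1, Wt1 and Snap25). Others ran from 0 to higher levels, Tnfaip6 to 191 CPM, Cyp19a1 to 147 and Inha to 100. Serpine2 was the highest, at 964 to 1779 CPM, and with it the 35 markers summed to 1047 to 2147 CPM. The marker sum without Serpine2, which is also in the egg-surface list, was 83.2 and 665 CPM with H3.3, 389 and 22.6 with K27R, 188 and 249 with R26K. In such bulk samples, fewer cells of a type and less RNA per cell cannot be told apart. Of 36 epithelial, stromal, blood and immune markers, 20 were at 0 throughout and none was among the 107. Their sum was 271 to 451 CPM and was led by Cdh1, which encodes E-cadherin.

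None of 15 mitochondrially encoded genes was found in the table by symbol. Among the genes in the table, the most abundant transcript was H1foo, which encodes the linker histone of the oocyte. It ranked 1 in every library, with 18882 and 19976 CPM with H3.3, 16733 and 24359.9 with K27R, 21676 and 22106 with R26K. The groups overlapped. Bcl2l10, a member of the BCL2 family of cell-death regulators, ranked 2 in every library. Its levels were 16893.5 and 19116 CPM with H3.3, 14507 and 17303 with K27R, 16468 and 14255 with R26K. H1foo was above Bcl2l10, and Bcl2l10 above the gene that followed, in 6 of 6 libraries.

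Gdf9 came next by median rank, at ranks 3 to 6. It encodes a growth factor of the TGF-beta family that the oocyte secretes to the surrounding granulosa cells. Its levels were 12102 and 11591 CPM with H3.3, 12925 and 15719 with K27R, 11150.2 and 10803 with R26K. The R26K pair was the lowest, with a difference from the nearest library of less than the spread within K27R. Bmp15, the related oocyte growth factor, ranked 31 to 52 with 2118 to 3316 CPM. The other 12 genes of the list of oocyte growth factors and receptors were not shared abundant transcripts. The best of them, Gja4, which encodes the connexin of the gap junctions between oocyte and granulosa cells, had a median rank of 1053.5.

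From rank 3 on, the order was no longer the same in all libraries. Gdf9 exceeded Spin1 in 4 of 6 libraries and Spin1 exceeded E330021D16Rik in 3 of 6. Among the 24 pairs of neighbours in the leading 25, H1foo with Bcl2l10 and Bcl2l10 with Gdf9 were the pairs that kept their order in all 6. The other 22 pairs changed order in at least 1 library, so their order is within the spread between libraries. The leading 5 members held 6.09 to 7.96% of counts, the leading 10 held 9.22 to 13.9% and the leading 25 held 15.3 to 22.7%.

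**Figure D1:**
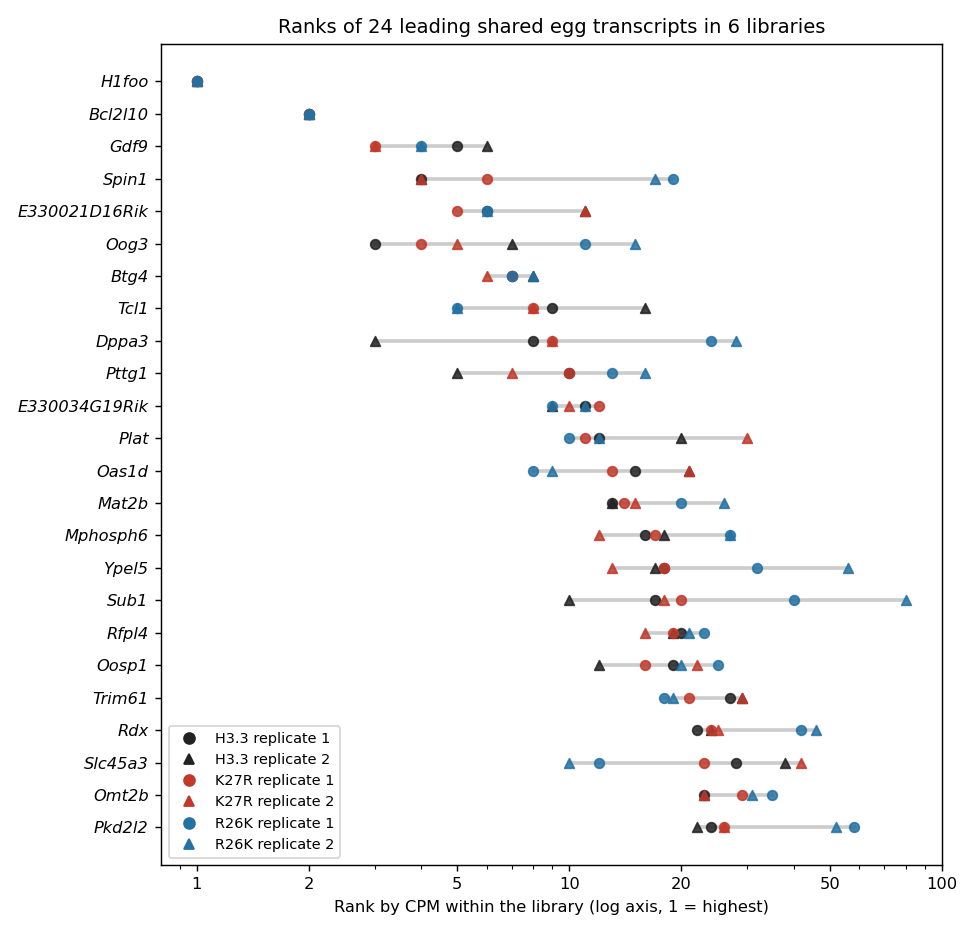
Rank by CPM (horizontal, log axis, 1 = highest) of 24 of the 25 members with the best median rank, 1 row per gene. Each point is 1 library, coloured by group and shaped by replicate, and the grey bar spans the 6 libraries. H1foo and Bcl2l10 sit at ranks 1 and 2 in all libraries, while Sub1 runs from 10 to 80 and Dppa3 from 3 to 28.

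The oocyte-specific families made up the largest group. These are genes and gene clusters, many of them lineage-restricted, that are expressed mainly in female germ cells; the list also takes in a few germline or maternal genes of wider expression, such as Dazl and Spin1. Of its 81 genes in the table, 27 were shared abundant transcripts, including 13 of the leading 25. The whole list held 17.9 and 17.7% of counts with H3.3, 17.0 and 19.5% with K27R, 15.8 and 15.0% with R26K. The median over its genes of the median rank was 333, against 7099.5 over the 14242 genes with a count in any library. The lists were chosen with earlier results of these data known, so these numbers describe the list and do not test it.

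Spin1 encodes spindlin, a reader of histone methylation first known as an abundant maternal transcript. It measured 12452 and 12657 CPM with H3.3, 11192 and 13519 with K27R, 4974 and 5007 with R26K. The R26K libraries were low and did not overlap with the others, which moved its rank from 4 to 6 down to 19 and 17. Oog3, of the PRAME-like leucine-rich family, was also lowest in both R26K libraries, with 14235 and 11225 CPM with H3.3, 12895 and 13311 with K27R, 6982 and 5226 with R26K. Of its 50-base stretches, 19.7% also occurred in transcripts of another gene, so its reads could be split or lost in counting.

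Tcl1, a coactivator of AKT kinase and founder of a cluster of related oocyte genes, ranked 5 to 16. Its levels were 8901 and 6657 CPM with H3.3, 8956 and 10905 with K27R, 11045 and 10108 with R26K, with overlapping groups. Its relative Tcl1b1 ranked 50 to 71. A pair of transcripts known by clone names stood among the leading 11. E330021D16Rik measured 11449 and 8607 CPM with H3.3, 12438 and 8729 with K27R, 10994 and 8778 with R26K. E330034G19Rik was steadier, at ranks 9 to 12 and 6903 to 10489.7 CPM, 1.52-fold from lowest to highest. Neither separated the groups.

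The remaining family members fell into recognisable clusters. Oas1d and Oas1e belong to the oligoadenylate synthetase family and ranked 8 to 21 and 37 to 46. Rfpl4, a RING-finger gene of the oocyte, ranked 16 to 23, and Trim61 ranked 18 to 29. The secreted oocyte proteins Oosp1 and Oosp3 ranked 12 to 25 and 25 to 66. The homeobox genes Obox5, Obox2 and Obox1 ranked 24 to 46, 28 to 57 and 32 to 58. Obox1 and Obox2 shared 59.3 and 63.0% of their 50-base stretches with other genes, chiefly each other, so that their separate levels are uncertain. The same holds for Omt2b, with 51.5% shared, and its near copy Omt2a, with 29.5%; they ranked 23 to 35 and 28 to 56. Fbxw24, an F-box gene of a large oocyte cluster, ranked 33 to 89. D6Ertd527e ranked 20 to 68, C87499 34 to 84 and Khdc1b 34 to 65. Dazl, a germ-cell RNA-binding protein, ranked 51 to 120 and Accsl 42 to 153. C86187, at ranks 38 to 73, was the single member annotated as a long non-coding RNA; the other 106 were protein coding.

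Over the 27 family members, the ratio of the highest to the lowest library had a median of 1.66 and reached 3.22 for D6Ertd527e. The R26K pair lay below all other libraries for 11 of them, above for 2 and overlapped for 14. Among all 10667 genes kept for testing, the R26K pair lay below the other 4 libraries for 9.74% and above for 25.4%.

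**Figure D2:**
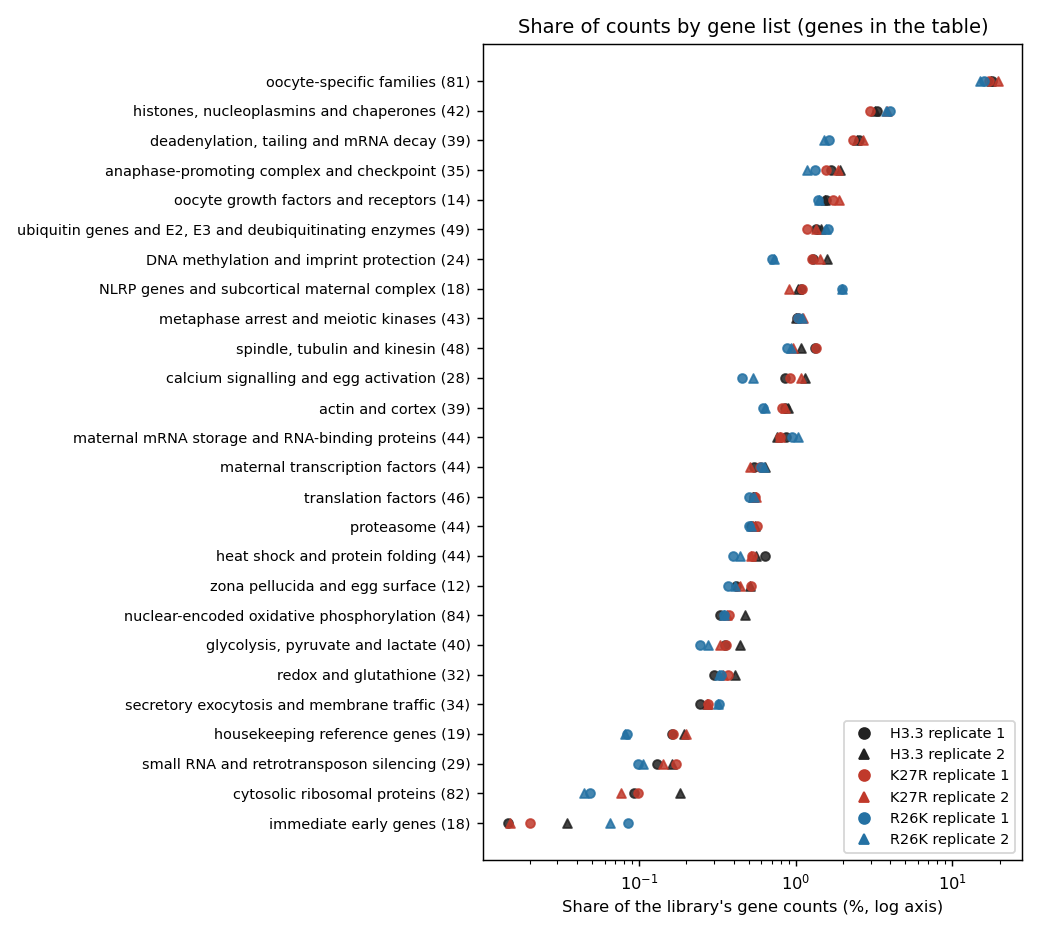
Share of each library's counts (horizontal, percent, log axis) held by 26 gene lists, with the number of genes in the table in brackets and 1 point per library, coloured by group and shaped by replicate. The oocyte-specific families hold 15.0 to 19.5% in every library, and cytosolic ribosomal proteins 0.0443 to 0.183%.

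Among regulators of messenger RNA decay, 1 gene stood near the top. Btg4 recruits the CCR4-NOT deadenylase to maternal messengers for their clearance. It ranked 6 to 8, with 10560.5 and 10440.5 CPM with H3.3, 10048 and 12411 with K27R, 8423 and 7645 with R26K. The R26K pair was lowest without overlap, yet the rank moved by at most 2 places. Cnot7, a catalytic deadenylase subunit of that complex, ranked 30 to 78, and Dcp1a, an activator of decapping, 66 to 139. Of 39 genes in the deadenylation and decay list, these 3 were shared abundant transcripts and the list held 1.52 to 2.67% of counts. Paip1, which binds the poly(A)-binding protein, was at ranks 14 to 17 in the H3.3 and K27R libraries and at 1049 and 1513 in the R26K libraries. Its levels were 6412, 6824, 5921 and 7065 CPM against 188 and 125 CPM, so it was not a shared transcript.

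The list of messenger storage and RNA-binding proteins held less, 0.752 to 1.03%. Dazl was its 1 shared abundant transcript of 44. Lsm14b, a component of stored messenger particles, ranked 73 to 175 in the H3.3 and K27R libraries and 847 and 1516 in R26K. Zar1, an oocyte RNA-binding protein, had a median rank of 747.5 and ran from 23 to 993.

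The 3′ ends of the members were searched for a feature of stored messengers. It was not used in ranking. Ranks also depend on tail length through the poly(A) priming, so this feature and rank may not be independent. Cytoplasmic polyadenylation in maturing oocytes uses a U-rich cytoplasmic polyadenylation element close to the hexamer that also directs nuclear polyadenylation. The element was searched as TTTTAT or TTTTAAT in the last 100 bases of the longest protein-coding transcript, and the hexamer as AATAAA or ATTAAA in the last 40 bases, on the transcript strand only, with overlap between the motifs allowed. For 6 members, a stretch of the 3′ untranslated region is shown because it holds the element and hexamer within 30 bases, both in capitals. These 6 are examples, and further members had both motifs within 30 bases. In each of the 6 the element ends before the hexamer, while in Zbed3, Brdt, Dcp1a and AU022751 the motifs overlap.

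Bcl2l10: catTTTTAATaacttcaaattcttAATAAA
Gdf9: tgctgtggTTTTATgtgacggaagAATAAA
E330034G19Rik: ccattaagagaatgTTTTATgaatAATAAA
D6Ertd527e: tTTTTATtattgtttgtttatttcAATAAA
Cnot7: aagtcttaaggtacaTTTTATatcAATAAA
Bub1b: ctctcctttcactgtgtaTTTTATAATAAA

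The sequences are from GENCODE M21 on GRCm38, the assembly that mm10 names. The stretch of Bcl2l10 lies at chr9:75351588-75351617 on the plus strand, and that of Gdf9 at chr11:53437858-53437887, plus. Those of E330034G19Rik and D6Ertd527e lie at chr14:24309915-24309944 and chr6:87112952-87112981, both plus. That of Cnot7 is at chr8:40493041-40493070 on the minus strand and that of Bub1b at chr2:118641547-118641576, plus. All are in the last exon and annotated as untranslated.

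Of the 106 protein-coding members, 88 had a hexamer and 39 of these also had the element (44.3%). Among genes outside the shared set, the share was 34.5% for median ranks up to 200, 36.5% for the band over 200 to 500, 32.0% over 500 to 1000, 28.2% over 1000 to 2000, 25.2% over 2000 to 4000 and 17.9% over 4000 to 8000. Over all genes with a count it was 20.2% (2064 of 10200). With the hexamer masked before the search, the shares were 42.0% for the members and 18.3% for all genes with a count. The last 100 bases held a median of 70% A and T in the members and 65% in all genes with a count, and the part of this base composition in the difference was not tested. Nor was the part of tail length. Among the leading 25 members, 21 had a hexamer and 13 of them the element, H1foo, Spin1, Tcl1 and Plat included. A match describes the letters of the annotated end; a missing match says only that the letters are not in the window.

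**Figure D3:**
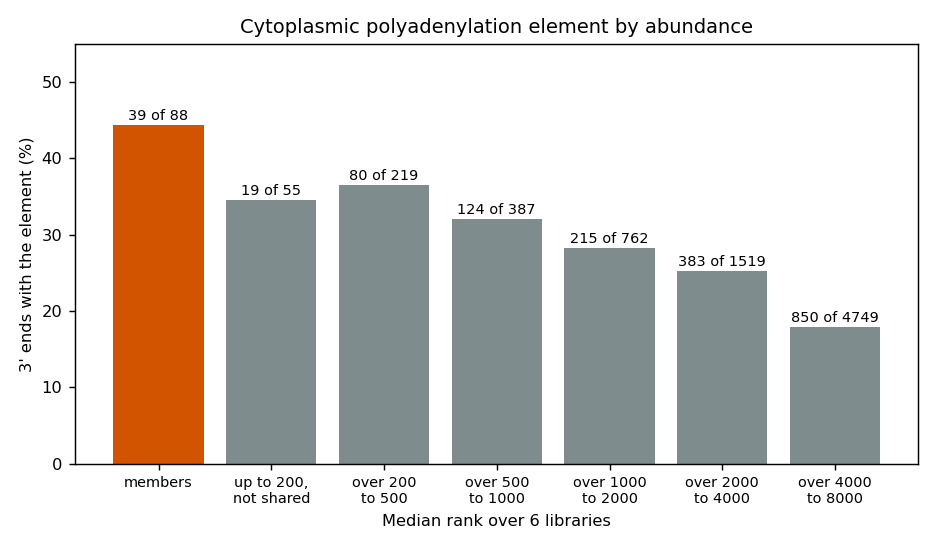
Percent of 3′ ends with a polyadenylation hexamer that also hold the cytoplasmic polyadenylation element, for the members (orange) and for other genes in bands of median rank (grey). The numbers over the bars are genes with the element of genes with the hexamer; the share is 44.3% in the members and 17.9% in the band of median ranks over 4000 to 8000.

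Cell-cycle transcripts were represented by a few very abundant genes. Pttg1 encodes securin, which holds separase inactive until anaphase. It measured 8693 and 12327 CPM with H3.3, 8098 and 12109.6 with K27R, 6437 and 5086 with R26K, at ranks 5 to 16. Bub1b and Mad2l1, of the spindle checkpoint, ranked 37 to 87 and 69 to 168. The list of the anaphase-promoting complex and checkpoint held 1.18 to 1.91% of counts with these 3 of 35 genes in the shared set.

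Mos, the kinase that upholds metaphase II arrest through the MAP kinase pathway, measured 1539 and 1615 CPM with H3.3, 1493 and 2214 with K27R, 924 and 1624 with R26K. The groups overlapped. Ccnb1, the cyclin B1 subunit of maturation-promoting factor, measured 1541 and 1587 CPM with H3.3, 1487 and 1553 with K27R, 795 and 772 with R26K, with R26K low. Of its 50-base stretches, 42.1% occurred in other genes, mostly in a pseudogene of the same name. The list of metaphase arrest and meiotic kinases held 1.01 to 1.11% of counts, the narrowest range of the lists that held over 1% in every library, with 2 of 43 genes in the shared set and 12 at rank 1000 or better in all 6. Wee2, the oocyte kinase that inhibits CDK1, ranked 153 to 238. Kif23, a kinesin of the central spindle, was the shared member of the 48 spindle genes at ranks 60 to 101. Outside the lists, Cenpn of the centromere ranked 42 to 105 and the checkpoint kinase Chek1 71 to 150.

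Chromatin genes followed H1foo at some distance. H3f3b, 1 of 2 genes that encode endogenous H3.3, measured 3809.8 and 4009 CPM with H3.3, 3354 and 4364 with K27R, 2632 and 1869 with R26K. It ranked 24 to 54. H3f3a, the other gene for the same protein, ranked 1612 to 3591 with 33.2 to 108 CPM, so that nearly all counts of the pair came from H3f3b. Whether reads of the transgene fall on either gene is not given in the sources used here. Slbp, which binds the stem-loop of replication-dependent histone messengers, ranked 31 to 48 in the H3.3 and K27R libraries and 14 and 18 in R26K. Rbbp7, a histone-binding subunit of several chromatin complexes, ranked 51 to 82 and 21 and 22 in the same order. Together the 42 genes for histones, nucleoplasmins and chaperones held 2.97 to 3.98% of counts, of which H1foo held the larger part.

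Dppa3 encodes Stella, which protects the maternal genome from loss of DNA methylation in the zygote. It measured 9010.2 and 12716.5 CPM with H3.3, 8611 and 10859 with K27R, 4114 and 3209.9 with R26K. The R26K libraries were low without overlap. It was the 1 shared abundant transcript of 24 genes for DNA methylation and imprint protection. Zfp57, which guards imprints, ranked 107 to 155 in the H3.3 and K27R libraries and 585 and 752 in R26K. Tet3, the maternal DNA dioxygenase, ranked 179 to 418.

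Among NLRP genes and the subcortical maternal complex, a protein assembly at the egg cortex, 3 of 18 genes were shared abundant transcripts. Nlrp14 ranked 57 to 153 and Nlrp4f 91 to 173. Zbed3, a component of the complex, differed most among all 107: it measured 1487 and 1376 CPM with H3.3, 1503 and 1969 with K27R, 13547 and 13385 with R26K. It thus stood at rank 3 in both R26K libraries and at 67 to 99 elsewhere. For the other 2 genes the R26K pair lay below all other libraries, as it did for 9.74% of all tested genes. It lay above for 25.4%. For Nlrp4f the difference was small: 850 and 854 CPM with R26K, against 887 CPM in K27R replicate 2.

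Other members served signalling, protein turnover and metabolism. Plat, tissue plasminogen activator, a messenger known to be stored and polyadenylated at maturation, ranked 10 to 30. Its levels were 7626 and 4947 CPM with H3.3, 7976 and 3726 with K27R, 7363 and 6404.5 with R26K, so that replicates of a group differed more than the groups did. Rdx encodes radixin, a linker of actin to the membrane, and ranked 22 to 46. Ube2d3, a ubiquitin-conjugating enzyme, ranked 29 to 122 and Cul1, a cullin scaffold, 72 to 89. The proteasome subunit Psma7 ranked 80 to 148. Of the enzymes, Mat2b, the regulatory subunit of methionine adenosyltransferase, ranked 13 to 26, Bpgm, of the bisphosphoglycerate branch of glycolysis, 13 to 45, Prdx1, a peroxiredoxin, 50 to 109, and Ldhb, a lactate dehydrogenase subunit, 54 to 164. Klf17, a zinc-finger transcription factor, was the single shared gene of 44 maternal transcription factors at ranks 96 to 145.

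On the egg surface, Astl, which encodes the protease ovastacin of the cortical granules, ranked 63 to 174, and Serpine2, a secreted protease inhibitor, 61 to 151. The genes for the zona pellucida proteins, made during oocyte growth, were lower. Zp3 measured 295 to 717 CPM, Zp2 20.2 to 254 and Zp1 98.0 to 171.

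Several lists of genes needed by every cell had no member. The members were 0.445% of all genes in the table, so having none is near that share. Of 82 cytosolic ribosomal proteins none was a shared abundant transcript, and none ranked 1000 or better in all 6 libraries. Together they held 0.0924 and 0.183% of counts with H3.3, 0.0973 and 0.0759% with K27R, 0.0486 and 0.0443% with R26K. The best placed was Rps27l, a ribosomal protein paralogue, at ranks 363 to 1706. Ribosomal protein genes have many processed pseudogenes: their transcripts shared a median of 48.6% of 50-base stretches with other genes, against 0% for the 107. How reads with several positions were counted is not given in the sources used here, and the part of this in the low levels was not tested across all 82. The 7 ribosomal genes with under 10% shared stretches had a median of their median ranks of 5740.5. For all 82 it was 7946.75, and over the genes with a count in any library 7099.5. The best worst rank among the 7 was 4909. Their percentages depend on the length of the longest annotated transcript. Rps15a shared 327 of 5130 stretches and Rps20 277 of 3657, so a low percentage there does not mean few shared stretches.

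Other lists of genes that growing cells express highly also had no member. None of 46 translation factors, 84 nuclear-encoded genes of oxidative phosphorylation or 44 heat shock and folding genes was in the shared set. Nor was any of 34 genes of membrane traffic or 19 housekeeping reference genes. In lists of this size, none is near the share of 0.445% over all genes in the table. In the same order, the lists had medians of the median rank of 3774.25, 5605.5, 3437.25, 3823.75 and 5333.5. Over all genes with a count in any library it was 7099.5. The lists do not hold every gene of their kind: the initiation factors Eif2b1 and Eif4e3, which the list of translation factors leaves out, were shared abundant transcripts at ranks 54 to 95 and 131 to 185. The housekeeping genes, which include Actb and Gapdh, held 0.0810 to 0.198% of counts. The best of them, Ywhaz, ranked 228 to 383 in the H3.3 and K27R libraries and 1940 and 2154 in R26K. Of the housekeeping genes, 7 shared 40% or more of their stretches with other genes, and the 6 with under 10% had a median of their median ranks of 4673. Eif5b, an initiation factor, was the best placed of the 46 listed translation factors at ranks 167 to 496. Uqcrc2, of respiratory complex III, was the best placed of the oxidative phosphorylation list at 226 to 585. Small RNA and retrotransposon genes held 0.0973 to 0.172% and immediate early genes 0.0144 to 0.0846%.

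Of the 107 members, 54 were in at least 1 list and 53 in none. Mphosph6, a cofactor of the RNA exosome, ranked 12 to 27, and Ypel5, of the yippee family, 13 to 56. Sub1, a transcriptional coactivator, measured 5899 and 8729 CPM with H3.3, 5344 and 6158 with K27R, 2557 and 1389 with R26K. Slc45a3, a solute carrier, ranked 23 to 42 in the H3.3 and K27R libraries and 10 and 12 in R26K. Pkd2l2, of the polycystin family, ranked 22 to 58.

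CPM favours long transcripts where reads cover the whole length. Per kilobase of the longest annotated transcript, H1foo and Bcl2l10 again ranked 1 and 2 in all libraries, with median levels of 17471 and 13673 CPM per kb. Dppa3, whose transcript is 833 bases long, moved up to a median rank of 3 at 10577 CPM per kb. Gdf9, Btg4 and Tcl1 followed at 6607, 6894 and 6818 CPM per kb, then E330021D16Rik, Oog3, E330034G19Rik and Oosp1. Spin1, with 4434 bases, fell to a median rank of 18.5 at 2666 CPM per kb. Of the 107 members, 85 were also at rank 200 or better per kb in all 6 libraries, out of 119 genes that were. The annotated length of Ube2d3, 19300 bases, belongs to 1 long isoform, which puts the gene at a median rank of 399 per kb.

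**Figure D4:**
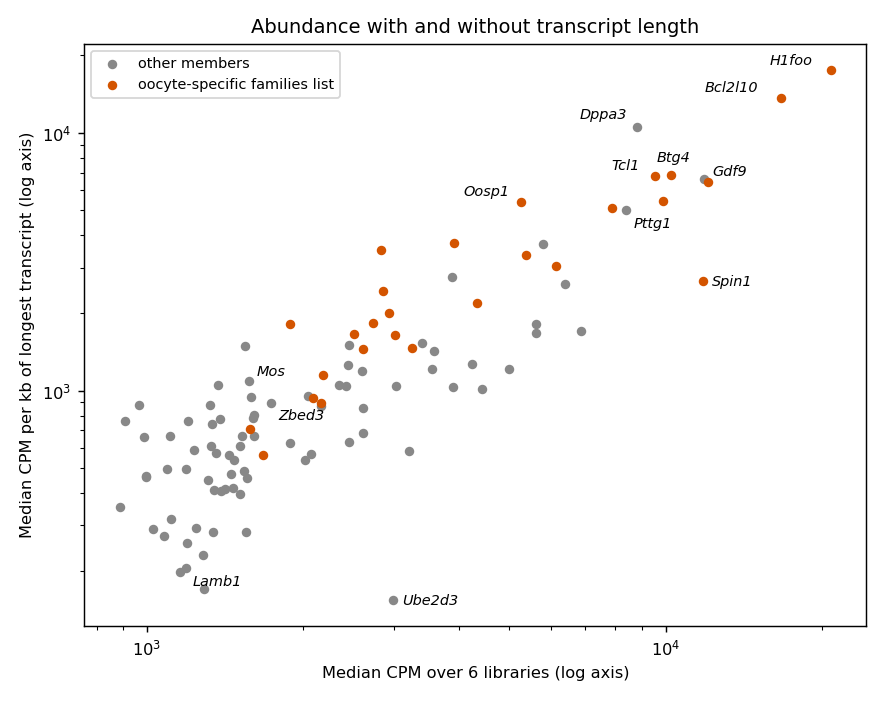
Median CPM over the 6 libraries (horizontal, log axis) against median CPM per kb of the longest annotated transcript (vertical, log axis), 1 point per member. Orange points are members of the oocyte-specific families list. H1foo and Bcl2l10 lead on both axes, Dppa3 rises and Spin1 falls when length is counted.

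The members were shorter than other expressed genes: the median of the longest coding transcript was 2205.5 bases, against 3088 for all genes with a count and 3310.5 for median ranks over 500 to 1000. Their median GC content was 45.9%, against 49.7% for all genes with a count. They lay on every autosome and the X chromosome, with 13 on chromosome 6, 11 on chromosome 2 and 3 on the X. In 55 members no 50-base stretch occurred in another gene's transcripts, and in 82 fewer than 10% did.

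Abundance fell gradually. The leading 200 genes of a library held 41.6 to 50.4% of its counts, and 196 to 337 genes were needed for 50%. The R26K libraries needed the most, 304 and 337. Of the leading 10 genes, 4 were shared by all 6 libraries, of 17 that were in the leading 10 of any: H1foo, Bcl2l10, Gdf9 and Btg4. The shared part was 28 of the leading 50, 56 of the leading 100, 107 of the leading 200, 242 of the leading 500 and 505 of the leading 1000. In total 333 genes reached the leading 200 of some library. Of these, 53 did so in both R26K libraries alone, 28 in all 4 other libraries but neither R26K library, and 54 in exactly 1 library.

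**Figure D5:**
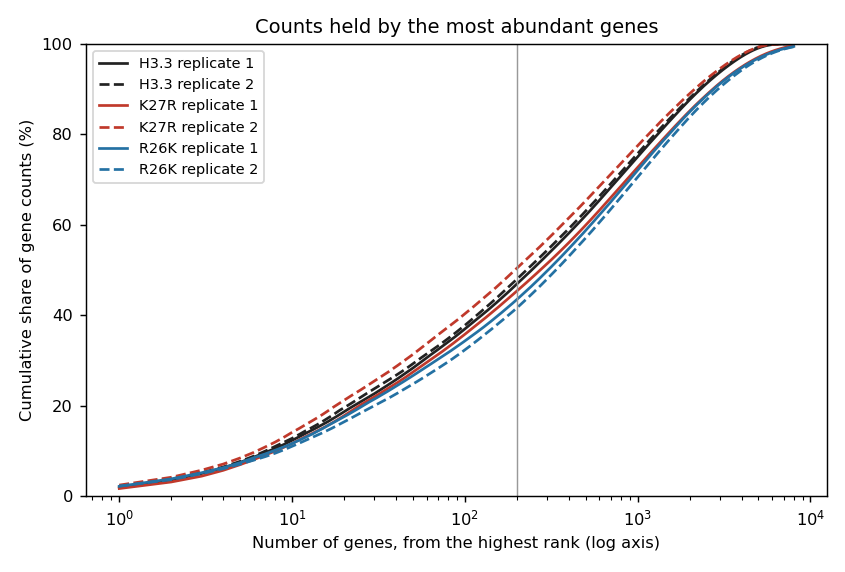
Cumulative share of counts (vertical, percent) against the number of genes taken from the highest rank down (horizontal, log axis), 1 line per library, coloured by group with replicate 2 dashed. The grey line marks 200 genes, where the libraries lie between 41.6 and 50.4%, with the 2 R26K libraries lowest.

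Replicates shared more of their leading 200 in the R26K pair (180) than in the K27R pair (172) or the H3.3 pair (162). Between H3.3 and K27R libraries 165 to 181 were shared, and between R26K and the others 117 to 129.

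The rank of a member ranged over a median of 49 places between its best and worst library, from 0 for H1foo and Bcl2l10 to 184 for AU022751. On the CPM scale, the highest library exceeded the lowest by a median of 1.92-fold; the ratio was under 2 for 57 members, from 2 to 4 for 45 and 4 or more for 5. The SD of log2(CPM + 1) over the 6 libraries had a median of 0.37, and 0.22 within replicate pairs. Genes below the shared set varied more: the median SD was 0.50 for median ranks over 200 to 500, 0.70 over 1000 to 2000 and 1.58 over 4000 to 8000. Being chosen for a high rank in all 6 libraries limits how far a member could vary.

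The steadiest member was Ggct, gamma-glutamylcyclotransferase, with 1085 and 1028 CPM with H3.3, 995 and 1146 with K27R, 1081 and 1073 with R26K. It varied 1.15-fold. Eif4e3, a cap-binding protein, Cul1, Pecr, a peroxisomal reductase, and Rbm18, an RNA-binding protein, followed with ratios of 1.18, 1.22, 1.23 and 1.27. At the other end stood Zbed3 with 9.85, AU022751 with 9.54, Sub1 with 6.29, Ccdc6 with 5.61 and Ypel5 with 4.18. In each of these 5 the R26K pair lay apart from the other 4 libraries, above for the first pair of genes and below for the rest. Of all 10667 tested genes, 35.2% lay above or below. The 5 were chosen for the widest range over these same libraries, which favours such a separation.

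Genes that reached the leading 200 in some library but not in all included far wider ranges. Spp1, a secreted phosphoprotein, ran from rank 64 to 6755 and separated replicates of the same group. Bcl7c, Sap30, Phf1, Med30, Atxn2l and Mier2 were at rank 223 or better in both R26K libraries and at 837 or worse elsewhere. Paip1, Klhl9 and Actr2 went the other way. The members closest inside the threshold, by their worst rank, were Dazap2 (197), Lrr1 (195) and AU022751 (191). Tgfb2 (208), Cdca8 (209) and Dsn1 (213) were closest outside, so that little separates the genes on either side.

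The levels of the 107 were then compared between groups with edgeR in 1 fit of all 6 libraries. Their selection by rank in these same libraries favours small differences, and the counts are read beside those of all 10667 genes tested. For R26K against H3.3, 3 members passed an adjusted p of 0.05, against 66 genes or 0.619% of all tested. For K27R against H3.3 no member and no gene passed, 0% of all tested. At an unadjusted p under 0.05 there were 1 member and 759 genes, and DESeq2 called 685 genes. For K27R against R26K the same 3 members passed, against 40 genes or 0.375% of all tested. In both comparisons with R26K, more members were called with DESeq2 and in edgeR without a filter on low counts. Those counts are given in the last section beside the genes called in the same fits.

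Zbed3 was higher in R26K than in H3.3 by 3.34 ± 0.25 on the log2 scale (SE, edgeR adjusted p = 0.0118). AU022751, a gene on the X chromosome known by its clone name, measured 900.1 and 829 CPM with H3.3, 1032 and 1159 with K27R, 6169.9 and 7909 with R26K. Its difference between R26K and H3.3 was 3.13 ± 0.23 (SE, edgeR adjusted p = 0.0118). Ccdc6, a coiled-coil protein, went down, with 3950.0 and 3299.9 CPM with H3.3, 4301 and 3108 with K27R, 798 and 767 with R26K. Its log2 difference was -2.11 ± 0.23 (SE, edgeR adjusted p = 0.0329). Against K27R the log2 differences, K27R minus R26K, were -3.04, -2.77 and 2.14 for Zbed3, AU022751 and Ccdc6, with edgeR adjusted p-values of 0.0182, 0.0182 and 0.0293. In fits of only the 4 libraries compared, none of these 6 differences passed (edgeR adjusted p of 0.0553 to 0.0705). Leaving out H3.3 replicate 2 ended all 3 calls against H3.3 (0.0527 for Zbed3 and AU022751, 0.0544 for Ccdc6). Leaving out K27R replicate 1 or 2 ended all 3 calls against K27R (adjusted p of 0.0937 to 0.188), and also those of AU022751 (0.0542 and 0.0634) and Ccdc6 (0.0910 and 0.100) against H3.3. The 3 groups share 1 estimate of spread in this fit.

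The median absolute log2 difference of the members was 0.56 between R26K and H3.3, 0.15 between K27R and H3.3, and 0.45 between K27R and R26K. Over all tested genes the medians were 1.66, 1.11 and 1.13. By CPM, the R26K pair lay below the other 4 libraries for 56 members, above for 15 and overlapped for 36; of all tested genes 9.74% lay below and 25.4% above. Members above had a median GC content of 49.7%, members below 44.1% and members overlapping 47.5%. Across the 107 genes, which share their libraries and are not independent, the mean log2 difference between R26K and the other 4 libraries had a Spearman correlation of 0.46 with GC content and -0.04 with transcript length. The part of GC content in these differences was not tested.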

How the data were processed

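Messenger RNA of MII eggs was measured in 6 libraries, 2 for each of 3 groups taken from the titles. Per the labels, cDNA came from the SMARTer Ultra Low kit and libraries from the Nextera kit, which keeps no strand; reads were single and 50 bases long. The tools named in the submitters' processing notes are featureCounts, SAMtools 1.3, TopHat2 2.1.0 and cutadapt 1.9.1, with the build mm10. Annotation, strand setting and treatment of reads with several positions are not given in the sources used here. Raw counts per gene symbol make up the deposited table, in which 0 rows lacked a name. None of the 15 mitochondrially encoded genes was found in it by symbol, so no rank or share is given for them.

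From these counts, CPM was computed as count over column total, and ranks were taken within each library, ties sharing the lowest rank. Lengths, GC content, locations and 3′ ends came from GENCODE M21, in which 23665 of 24062 symbols matched. Shared 50-base stretches were counted between transcripts on both strands. Groups were compared with edgeR 4.0.16 in R 4.3.3 (filterByExpr, TMM, glmQLFit and glmQLFTest, Benjamini-Hochberg over 10667 genes, two-sided), with 3 residual degrees of freedom; TMM factors were 0.931 to 1.06. SE is the log2 difference over the square root of F. Steps were tested on simulated data. A count of 3 stands for 0.0758 to 0.278 CPM, for counting error only.

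Members, the 27 gene lists, tests and alternatives were chosen with earlier results of these data known. Named genes were the 25 members with the best median rank, the 10 best per kb, the best 3 of each list, the 5 members with the smallest and the 5 with the largest range, the 10 most variable genes in any leading 200, members called, the 3 nearest genes on each side of rank 200, and H3f3a and H3f3b. 1 gene that the rule names is not reported here. Other genes were chosen after their values were seen. Alternatives were DESeq2 1.42.0, RLE scaling, no filter, the replicate block, the 4 libraries compared, other ranks, thinning, length, and leaving out each library; lengths of coding transcripts and the fit to H3.3 and K27R libraries alone were added after seeing the data.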

Additional observations from a re-analysis of the deposited data

How the results depend on the processing

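The number of shared abundant transcripts depended on the rank chosen: 56 at rank 100 and 242 at rank 500, against 107 at rank 200, holding 27.7 and 45.8% of counts on average against 35.2%. At rank 500 the median rank range was 125.5 places against 49. With only the H3.3 and K27R libraries, added after seeing the data, the shared genes held 42.7%. Thinning, ranking per kb (119 genes, or 112 with coding transcripts) and leaving out predicted symbols (104) kept the number within 1.5 times. Leaving out each library in turn gave 107 to 116 genes, 34.5 to 37.3% of counts and ranges of 41 to 48 places. The median ranks of the leading 25 moved by no more than 1 SD of the rank over the 6 libraries, or 1 place where the SD was smaller, with thinning, with each library left out and with only the H3.3 and K27R libraries, and so did the 23 that remain without predicted symbols. Ranking per kb moved 10 of 25 by more, or 9 of 25 with coding transcripts.

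The calls between groups were less stable. For R26K against H3.3, 66 genes became 241 without a filter, 0 in a fit of the 4 libraries compared and 1644 with DESeq2; leaving out 1 library gave 1 to 193, the lowest without either K27R library. For K27R against H3.3, 0 became 685 with DESeq2, and 0 to 5 with 1 library left out (5 without R26K replicate 1 and 3 without R26K replicate 2). For K27R against R26K, 40 became 156 without a filter and 759 with DESeq2; leaving out 1 library gave 0 to 140, with 0 without either K27R library. The causes were not tested. A fit of 4 libraries has fewer samples to estimate the spread. Where 1 library is left, it is assumed to vary like the other groups. With the replicate block, the calls were 260, 0 and 195, of which members were 11, 0 and 6, against 3, 0 and 3 without it; the replicate numbers did not pair the samples (correlations of deviations 0.052, 0.0025 and 0.028 over 2854 genes). Without a filter, all 14242 genes with a count were tested. Members were then 16 of the 241 genes called for R26K against H3.3 and 13 of the 156 for K27R against R26K. No member was called for K27R against H3.3. With DESeq2, members were 39 of 1644, 0 of 685 and 27 of 759 genes called. Members called were 0 in fits of the 4 libraries compared. Without R26K replicate 1 they were 12, 0 and 11, and without R26K replicate 2 they were 8, 0 and 4. For R26K against H3.3 they were 0 without H3.3 replicate 2 and 1 without either K27R library, and for K27R against R26K 0 without either K27R library. The direction of Zbed3, AU022751 and Ccdc6 was the same in all 11 alternatives of each comparison; the calls against H3.3 held in 9, 7 and 7 of them, and each against K27R in 8. Highest adjusted p-values over the alternatives were 0.0705, 0.0705 and 0.100 against H3.3, and 0.109, 0.188 and 0.188 against K27R (edgeR or DESeq2). The CPM that 3 counts stand for depends on depth, but the 107 were each far above the limit of 3 counts in every library.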
